A study of Mus musculus with 12 samples.

Results

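The mRNA levels of 7 caspase genes and of gasdermin D (Gsdmd) were followed across 12 RNA-seq libraries of B16F10 cells, a melanoma line of C57BL/6 mice. The members were Casp1, Casp2, Casp4, Casp6, Casp8, Casp9, Casp12 and Gsdmd, found by matching the Ensembl identifiers of the deposited count table to these symbols. They are 8 of the 54232 genes in the table. All 8 passed the filter on low counts and are among the 14924 genes tested, but Casp1 and Casp12 had at most 3 counts in 2 of the 3 untreated libraries and passed through other groups, so that a count over the members is a description. The libraries form 4 groups of 3. WT is the untreated B16F10 culture. Relapsed comprises the lines ITF1, Rel and ITM, each grown from a tumor that came back after immunotherapy (anti-CD40, TNFα and anti-TRP1 injected into the tumor) and sorted and cultured before the RNA was taken. Lyso is B16F10 incubated with lysosomes derived from T cells, for 48 hours by the labels, whereas the study's methods give a shorter exposure, so that the time behind the Lyso values is uncertain. Tumor is B16F10 sorted by flow cytometry from relapsed tumors (libraries 1, 3 and 4), with RNA extracted without culture. The labels give the strain C57BL/6 and an age of 6 weeks for all 4 groups, and none of the descriptions names a genetic change in the cells or mice. The labels do not say which libraries came from separate cultures or animals, so p-values measure the spread between these libraries, which may be technical.

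Caspases are cysteine proteases that cut their substrates after aspartate and are made as inactive precursors. The initiators caspase-8, caspase-9 and caspase-2 are activated on large protein platforms and can start apoptosis, in which executioners such as caspase-6 take the cell apart. The inflammatory caspases caspase-1 and caspase-11 (the product of mouse Casp4) instead cut gasdermin D, whose freed end forms pores in the plasma membrane and causes pyroptosis, a lytic death. Their activity is set mainly by cleavage of the proteins, which the amount of mRNA does not show. Interferon-γ and its transcription factor IRF1 are known inducers of Casp4, and IRF2 is known to drive Gsdmd transcription.

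Casp1, Casp4 and Casp12 are neighbours. On GRCm38, Casp1 (ENSMUSG00000025888) spans chromosome 9 from 5298517 to 5307265, Casp4 (ENSMUSG00000033538) from 5308828 to 5336783 and Casp12 (ENSMUSG00000025887) from 5345430 to 5373032. All 3 genes lie on the plus strand, with 1562 bases between Casp1 and Casp4 and 8646 bases between Casp4 and Casp12, and no other annotated gene starts, ends or lies in these 74516 bases. The other 5 members are scattered and also on the plus strand. They are Casp8 (ENSMUSG00000026029, chromosome 1, 58795374 to 58847503), Casp6 (ENSMUSG00000027997, chromosome 3, 129901425 to 129914103), Casp9 (ENSMUSG00000028914, chromosome 4, 141793612 to 141815976), Casp2 (ENSMUSG00000029863, chromosome 6, 42264985 to 42282508) and Gsdmd (ENSMUSG00000022575, chromosome 15, 75862327 to 75867408). All 8 are annotated as protein-coding, and values below are counts over their exons. Of the exonic bases of Casp9, 1.81% also lie in exons of genes on the opposite strand (Cela2a and Ctrc).

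The promoters of the 3 neighbours are shown because these genes lie side by side. They are RefSeq sequences of GRCm38.p6, plus strand, in windows of 300 bases around the start of transcription (chr9:5298267-5298566 for Casp1, chr9:5308599-5308898 for the first Casp4 start and chr9:5345226-5345525 for Casp12). Capitals mark matches, on either strand, to TTCNNNGAA (the GAS element bound by STAT proteins), AANNGAAA (a short interferon regulatory factor element, IRF), TGANTCA (AP-1) or GCGGGGGC (EGR).
Casp1: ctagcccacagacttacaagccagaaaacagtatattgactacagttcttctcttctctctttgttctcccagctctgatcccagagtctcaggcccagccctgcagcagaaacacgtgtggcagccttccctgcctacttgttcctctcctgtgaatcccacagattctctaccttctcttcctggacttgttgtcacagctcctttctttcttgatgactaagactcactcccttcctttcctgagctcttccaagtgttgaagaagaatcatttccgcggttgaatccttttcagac
Casp4: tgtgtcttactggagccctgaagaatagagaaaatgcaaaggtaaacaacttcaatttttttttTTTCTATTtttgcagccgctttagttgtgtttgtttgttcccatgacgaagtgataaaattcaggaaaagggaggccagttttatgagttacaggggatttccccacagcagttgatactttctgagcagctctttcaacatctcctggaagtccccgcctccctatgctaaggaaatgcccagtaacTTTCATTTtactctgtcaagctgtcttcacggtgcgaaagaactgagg
Casp12: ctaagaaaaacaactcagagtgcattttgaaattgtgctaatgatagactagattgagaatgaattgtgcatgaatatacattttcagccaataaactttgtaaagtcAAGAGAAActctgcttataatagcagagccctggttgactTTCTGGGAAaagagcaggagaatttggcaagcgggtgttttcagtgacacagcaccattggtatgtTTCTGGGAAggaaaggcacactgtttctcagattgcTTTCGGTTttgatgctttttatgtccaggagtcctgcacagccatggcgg
The Casp12 window held 2 GAS matches, both reading TTCTGGGAA, at -102 to -94 and at -36 to -28 with the start site counted as 0, and 2 IRF matches at -142 to -135 and 0 to 7. The Casp4 window held 2 IRF matches, at -186 to -179 and 2 to 9, and no GAS match. The Casp1 window held none of the 4 motifs. Of 32851 promoter windows of the same length, 8.30% held a GAS match, 23.9% an IRF match, 7.81% an AP-1 match and 4.81% an EGR match, so such matches are common. Of the other members with a window, Casp8 held 2 IRF matches, and Casp2, Casp6 and Casp9 held no match. No motif overlapped another in these windows, and a match is a run of letters and not a measured binding site.

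Depth ran from 1667398 to 16402629 counts on genes, with WT 1, WT 2 and the 3 Tumor libraries the shallowest, and 3 counts, the floor used here, stand for between 0.177 and 1.7 CPM (read counts scaled to a common library size, with TMM factors). The lineage label held, since all 10 melanocyte markers (such as Dct, Pmel and Tyr) were above the floor in all 12 libraries, with summed levels between 19811 and 28448 CPM in WT and between 20546 and 22660 CPM in Tumor. Markers of other cells moved with 2 groups. The 10 fibroblast markers summed to 30.0 to 39.5 CPM in WT and 7707 to 10709 CPM in Tumor, the 10 myeloid markers to 15.3 to 30.6 and 51.7 to 76.5 CPM, and the 8 endothelial markers to 2.96 to 10.2 and 48.3 to 53.6 CPM. In Tumor, 10 of 10, 7 of 8 and 6 of 6 tested genes of these lists were called higher than in WT, beside 12.1% of all tested genes. Several, such as Col3a1, Dcn, C1qa and Kdr, passed the filter on low counts only through Tumor. These numbers of calls are thus a description. The defining myeloid markers Adgre1, Itgam, Tyrobp and C1qa had 0 counts in every WT and Relapsed library. In Lyso, the 12 T cell markers summed to 15.8 to 17.9 CPM against 1.27 to 6.79 CPM in WT. Of their 4 tested genes 3 were called higher, beside 3.5% of all tested genes. Cd8a, Cd8b1 and Gzmb had 0 counts in WT and passed the filter only through Lyso, so that these calls are a description. The myeloid list summed to 35.8 to 39.4 CPM in Lyso, with Itgam and C1qa at 0, and the fibroblast list to 15.1 to 18.0 CPM. In bulk RNA, fewer cells of a type and less RNA per cell cannot be told apart, and the part of such cells in the differences below was not tested.

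**Figure D1:**
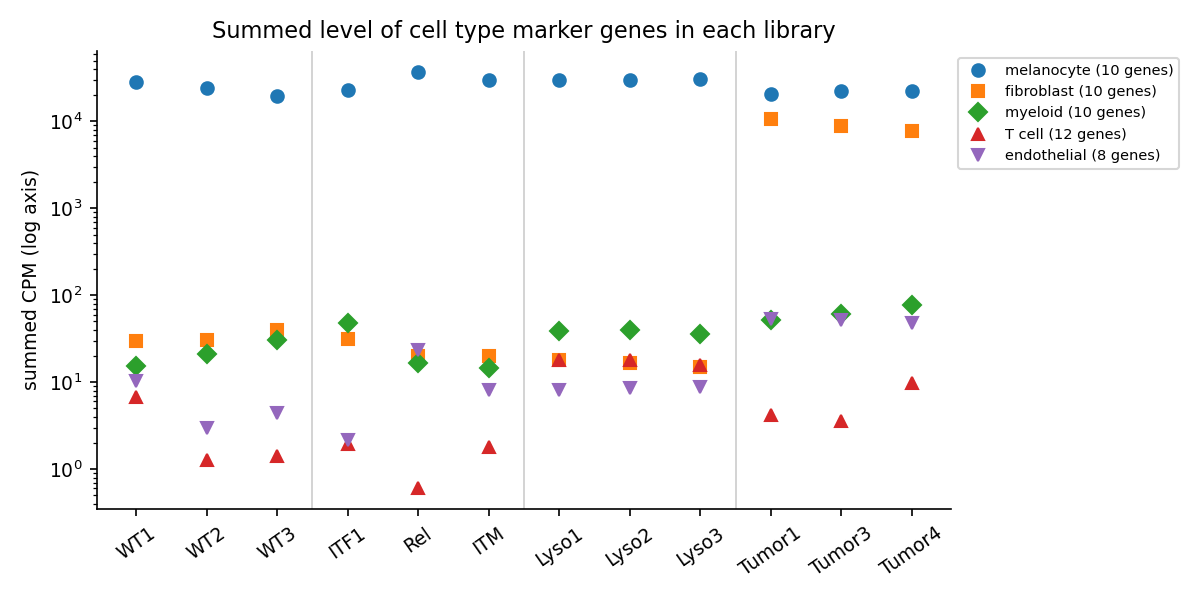
Summed TMM-scaled CPM of the marker genes of 5 cell types (log y axis) in each of the 12 libraries (x axis), 1 point per library and list. The fibroblast list stands at 7707 to 10709 CPM in Tumor and at or under 39.5 CPM elsewhere, and the T cell list is highest in Lyso.

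The levels per length separated an abundant and a scarce set of members. In WT, mean levels in CPM per kilobase of exon were 34.7 for Casp8, 8.73 for Casp2, 3.69 for Casp9 and 2.05 for Casp6. The inflammatory members were lower, at 0.90 for Casp4, 0.76 for Gsdmd, 0.62 for Casp1 and 0.03 for Casp12. Neighbours among the first 4 genes in this order did not overlap in any WT library, whereas Casp6 overlapped Casp4, Casp4 overlapped Gsdmd and Gsdmd overlapped Casp1 (SD of 1.07 for Casp4, 0.80 for Gsdmd and 0.49 for Casp1). Casp12 lay below all of them, with 0, 0 and 6 counts in WT 1, 2 and 3 beside 3, 2 and 4 for Casp1. So few counts cannot rank Casp12 against Casp1. In Tumor, the means of Gsdmd (4.55) and Casp4 (4.07) lay between those of Casp6 (3.79) and Casp9 (4.85 CPM per kilobase). Casp12 (2.75) and Casp1 (2.37) had lower means than Casp6, and Casp8 was again the highest at 29.1.

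**Figure D2:**
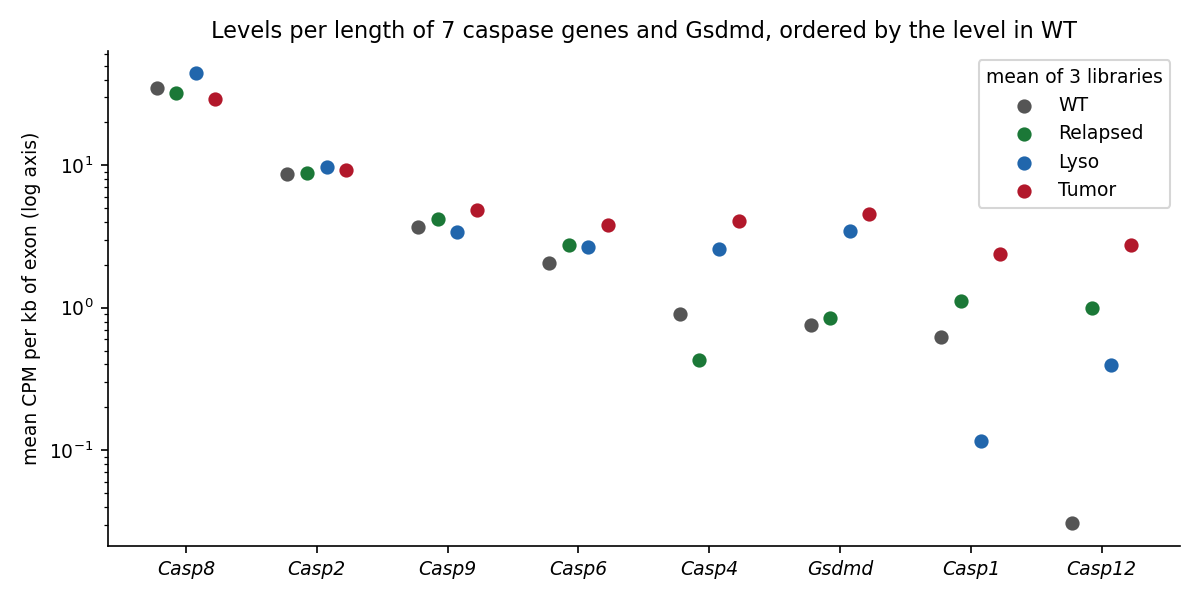
Mean CPM per kilobase of exon (log y axis) of the 8 members (x axis), 1 point per group of 3 libraries. Casp8 is highest in every group, and the groups lie furthest apart for Casp12 and Casp1.

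Gsdmd, the pore-forming substrate, was higher in cells incubated with T-cell lysosomes and in sorted tumor cells. Its level was 3.96, 0.42 and 1.0 CPM in WT 1, 2 and 3, and 8.01, 8.85 and 7.94 CPM in Lyso. It was 7.80, 8.86 and 15.8 CPM in Tumor. All 6 of these libraries lay above all 3 WT libraries, and WT 1 was the highest of the controls. In the relapsed lines the level was 2.92 CPM in ITF1, 2.21 in Rel and 0.90 in ITM, within the range of WT. Against WT, Gsdmd rose in Lyso by a log2 fold change of 2.62 ± 0.57 (± standard error, here and below), with an adjusted p of 0.0201 in edgeR's quasi-likelihood test, and by 3.02 ± 0.58 in Tumor (edgeR adjusted p = 0.0032). Gsdmd was the only member called higher in Lyso, beside 3.5% of all tested genes called higher and 1.21% called lower in that comparison. The Lyso call was close to the limit of what 3 libraries show. Its edgeR adjusted p was 0.0613, 0.0637 and 0.0589 without Lyso 1, 2 and 3, 0.0683 without WT 2, 0.169 without WT 3 and 0.00536 without WT 1, while the fold change stayed between 2.06 and 3.20. The Tumor call held without each library in turn, with adjusted p between 0.000769 and 0.0446.

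Casp4, which encodes the caspase that senses cytosolic lipopolysaccharide and cuts gasdermin D, followed Gsdmd. Its level was 7.92, 0.84 and 1.24 CPM in WT, and 8.49, 10.1 and 10.3 CPM in Lyso. In Tumor it was 17.6, 14.3 and 13.4 CPM. The groups did not overlap, but WT 1 lay just under the lowest Lyso library. The relapsed lines were low, at 1.08, 2.74 and 0.96 CPM for ITF1, Rel and ITM. Casp4 rose in Tumor by 2.70 ± 0.61 (edgeR adjusted p = 0.0081). In Lyso the difference was 2.06 ± 0.60, and the adjusted p of 0.0767 in edgeR's quasi-likelihood test missed the threshold.

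WT 1 weighed on that call. It rested on 14 counts for Casp4 and 7 for Gsdmd, yet its levels exceeded the pooled WT 2 and WT 3 by 6.66-fold for Casp4 (95% counting interval 3.17 to 13.5) and by 4.25-fold for Gsdmd (1.5 to 10.7). Such intervals cover counting error only. Without WT 1, Casp4 was higher in Lyso by 3.04 (edgeR adjusted p = 0.00251) and in Tumor by 3.68 (0.000202). DESeq2 called the Lyso difference with all libraries kept (adjusted p = 0.0438). Without WT 3, the deepest control, the difference was 1.26 in Lyso (edgeR adjusted p = 0.355) and 1.90 in Tumor (0.0729). Of 6 fits that each left out 1 library of WT or Lyso, only that without WT 1 called Casp4 in Lyso. Without Lyso 1, 2 or 3 or WT 2, its edgeR adjusted p in Lyso was 0.171 to 0.202. Among the cell-type lists, WT 1 had the lowest myeloid sum of the 3 controls (15.3 CPM). Its endothelial sum was the highest (10.2 against 2.96 and 4.36 CPM) and came from Vwf alone. Its T cell sum of 6.79 CPM, also the highest, came from Lck alone. Their part in the WT 1 values was not tested.

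Casp1, the neighbour of Casp4 and the caspase that matures interleukin-1β, did not share its pattern in Lyso. It had 3, 2 and 4 counts in WT (1.7, 0.84 and 0.24 CPM) and only 1, 2 and 3 counts in the far deeper Lyso libraries (0.09, 0.19 and 0.24 CPM). The 3 Lyso libraries were thus at or under the floor. In Tumor the level was 2.28, 4.83 and 3.53 CPM, above every WT library. It was 1.38, 2.61 and 1.02 CPM in ITF1, Rel and ITM, which overlapped WT. Casp1 rose in Tumor by 2.78 ± 0.68 (edgeR adjusted p = 0.0126), where the fit gives the deep WT 3 more weight than a plain mean does. On pooled counts Tumor exceeded WT by 8.77-fold (4.24 to 20.4), and the adjusted p was 0.0611 without Tumor 3 and 0.169 without WT 3. In Lyso the difference from WT was -1.47 ± 0.89 (edgeR adjusted p = 0.415), and the pooled ratio of 0.417 had a counting interval of 0.122 to 1.31. At this depth no difference between Lyso and WT was detectable.

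Set side by side, Casp4 and Casp1 gave 37 and 9 counts in WT, 71 and 74 in Relapsed, 325 and 6 in Lyso and 182 and 46 in Tumor. Counts of Casp4 per count of Casp1 were thus 54.2 in Lyso, 4.11 in WT, 3.96 in Tumor and 0.959 in Relapsed. In single libraries the ratio ran from 42.3 to 90 in Lyso, from 0.778 to 1.05 in the relapsed lines, from 2.96 to 7.71 in Tumor and from 1 to 5.25 in WT. Since both genes were counted in the same library, depth does not enter these ratios. The Lyso values rest on 1 to 3 Casp1 counts, however, and the WT values on 2 to 4. Only Lyso stood clear of the other 3 groups.

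Casp12, the third neighbour, encodes a caspase long linked to stress of the endoplasmic reticulum and to the damping of inflammatory caspases. It had 0 counts in WT 1 and WT 2, which allows up to 1.7 and 1.27 CPM, and 6 counts (0.35 CPM) in WT 3. In Tumor the level was 6.50, 10.9 and 14.4 CPM. All 3 Tumor libraries lay above all 9 others, and the pooled ratio to WT was 38.6 (17.3 to 107). Casp12 rose by 5.25 ± 0.98 in Tumor (edgeR adjusted p = 0.0024), and it was called without each library in turn. In Lyso the level was 1.32, 1.40 and 1.86 CPM, a difference of 2.46 ± 1.07 (edgeR adjusted p = 0.242). The call depended on the fit, since the edgeR adjusted p was 0.0173 with no filter on low counts, 0.0335 with only the groups compared and 0.0305 with the 9 libraries of WT, Lyso and Tumor (0.0279 with the replicate number as a block). Only WT 3 was deep enough to hold such a level apart, and against it the ratio was 4.36 (1.87 to 12.4). The Lyso libraries lay well under the lowest Tumor library for Casp12.

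The relapsed lines differed among themselves in Casp12. ITF1 had 75 counts and Rel 79 (5.76 and 5.29 CPM), but ITM had 8 (0.48 CPM), close to WT 3. The difference of the group from WT was 3.76 ± 1.0 and missed the threshold in edgeR's quasi-likelihood test (adjusted p = 0.197). DESeq2 called it (adjusted p = 0.0155), as did edgeR without ITM (0.00793). ITM was also the lowest of the 3 lines for Casp1, Casp4, Gsdmd, Casp8 and Casp9, but the highest for Casp2 and Casp6. In edgeR's comparison of Relapsed with WT, no member was called, beside 0.0134% of all tested genes called higher and 0.0268% called lower. At an unadjusted p under 0.05 stood 3 members (Casp1, Casp6 and Casp12) and 1636 genes in all. The difference was 1.66 ± 0.68 for Casp1, 0.42 ± 0.15 for Casp6, 0.57 ± 0.60 for Gsdmd and -0.53 ± 0.66 for Casp4.

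**Figure D3:**
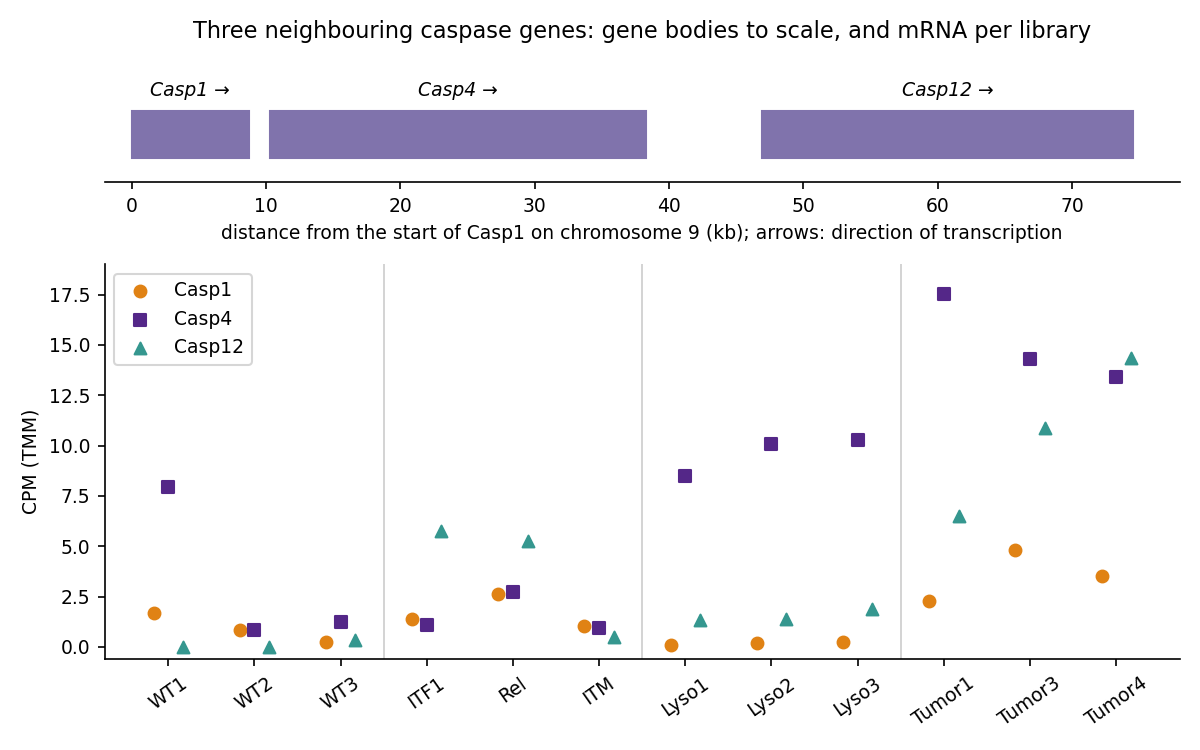
Top, the gene bodies of Casp1, Casp4 and Casp12 to scale, by distance in kilobases from the start of Casp1. Bottom, TMM-scaled CPM of the 3 genes (y axis) in each library (x axis), 1 point per gene and library. In Lyso, Casp4 is at 8.49 to 10.3 CPM while Casp1 is at 0.09 to 0.24 CPM, and all 3 genes are high in Tumor.

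Among the apoptotic caspases, Casp6 was higher in Tumor and Casp8 was highest in Lyso. Casp6, an executioner, had 10.2, 12.2 and 11.9 CPM in WT, 15.4, 15.5 and 15.6 CPM in the relapsed lines and 15.2, 13.4 and 16.4 CPM in Lyso. In Tumor it had 22.1, 21.1 and 20.2 CPM. The WT libraries were the lowest and the Tumor libraries the highest, with no overlap of either with any other group. Casp6 rose in Tumor by 0.87 ± 0.15 (edgeR adjusted p = 0.0017), and without each library in turn by 0.81 to 0.90. The differences of 0.37 ± 0.15 in Lyso and 0.42 ± 0.15 in Relapsed were not called (edgeR adjusted p = 0.194 and 0.331).

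Casp8, the initiator below death receptors that also restrains necroptosis, had 96.8, 98.4 and 106 CPM in WT and 127, 129 and 129 CPM in Lyso. It had 90.9, 99.1 and 88.1 CPM in the relapsed lines and 69.9, 85.3 and 97.4 CPM in Tumor. The 3 Lyso libraries lay above all others and close to each other (SD of 1.34 CPM). The difference of Lyso from WT was 0.35 ± 0.12 and was not called (edgeR adjusted p = 0.132). Tumor and WT overlapped, at -0.25 ± 0.12 (adjusted p = 0.177).

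Casp9, the initiator of the mitochondrial pathway, ranged from 13.9 to 24.9 CPM in WT, 17.7 to 24.7 in Relapsed, 16.7 to 18.5 in Lyso and 21.9 to 28.0 CPM in Tumor. Casp2, an initiator linked to DNA damage and centrosome number, ranged from 55.9 to 67.4, 58.1 to 67.0, 66.9 to 70.1 and 55.3 to 73.5 CPM in the same order. Every group overlapped WT for both genes. Neither was called against WT in edgeR's quasi-likelihood test, with differences of -0.09 ± 0.20 (Lyso) and 0.41 ± 0.21 (Tumor) for Casp9 and of 0.17 ± 0.12 and 0.10 ± 0.13 for Casp2.

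**Figure D4:**
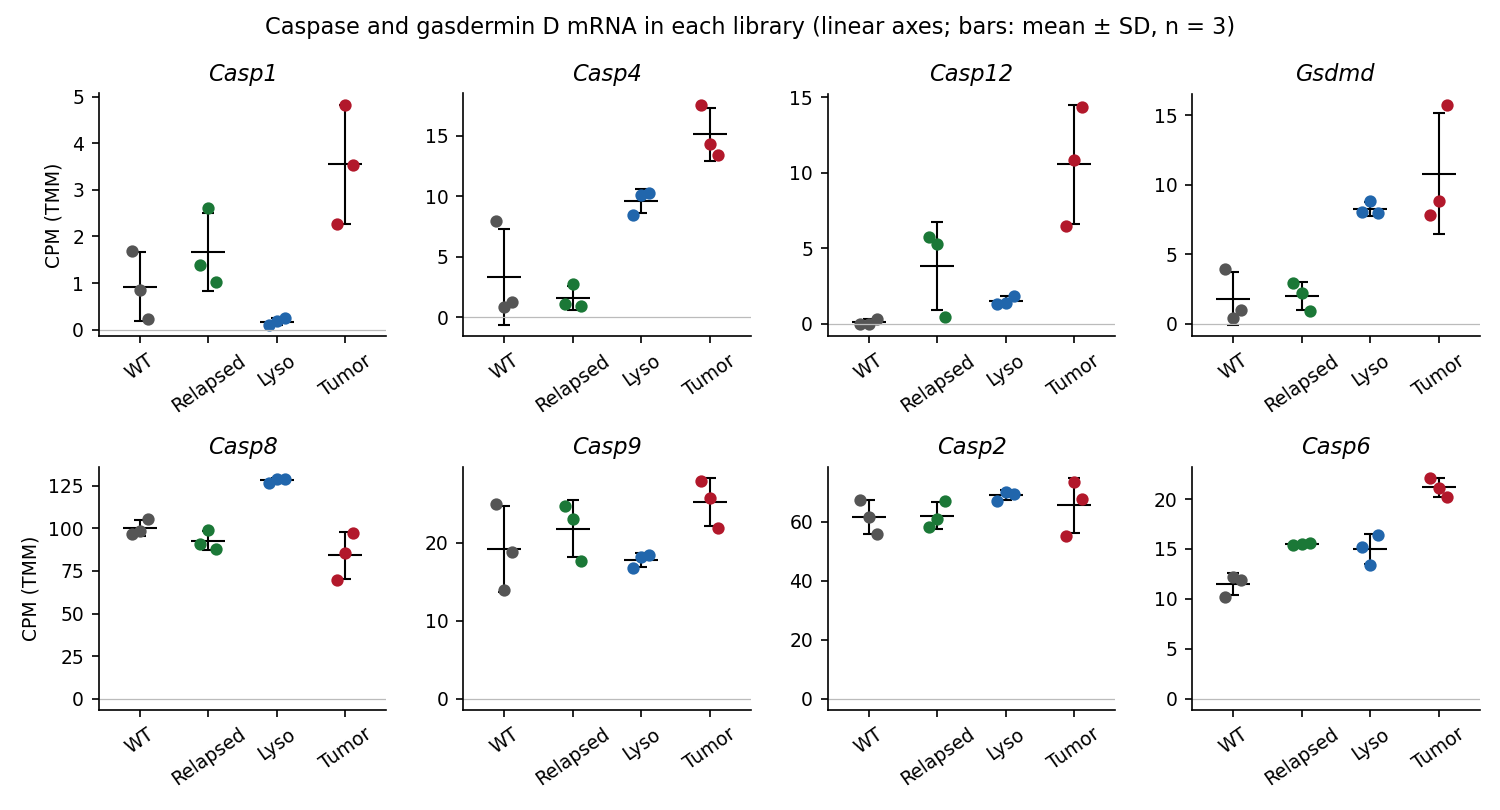
TMM-scaled CPM of each member (linear y axes from 0) by group (x axis), 1 point per library, with the mean and SD of 3 libraries. Gsdmd and Casp4 are high in Lyso and Tumor, Casp1 and Casp12 are highest in Tumor, and Casp2 and Casp9 overlap between WT and every other group.

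Counted together, 5 of the 8 members were called higher in Tumor than in WT (Casp1, Casp4, Casp6, Casp12 and Gsdmd), beside 12.1% of all tested genes, and 0 were called lower by edgeR or DESeq2, or at an unadjusted p under 0.05, beside 6.94%. The median difference of the members was 1.78 against 0.00 for all genes tested. With 3 libraries against 3, an exact two-sided permutation test over libraries cannot go below a p of 0.1, which the 5 genes reached. Lists of fibroblast, myeloid and endothelial markers were higher in the same Tumor libraries, and macrophages are known to express Casp1, Casp4 and Gsdmd. The part of such cells in the Tumor values was not tested. In the Lyso libraries, the myeloid list had 5 of 10 markers above the floor in every library. It had 4 in the deep WT 3 and in each relapsed line. In the shallow WT 1 and WT 2, where the floor lies at a higher CPM, it had 2. Its summed level was 35.8 to 39.4 CPM in Lyso, with Itgam and C1qa at 0. That level was 15.3 to 30.6 CPM in WT and 14.7 to 47.5 CPM in the relapsed lines. Ptprc, the pan-leukocyte gene of that list, had 32, 39 and 27 counts in Lyso and 0, 1 and 0 in WT. T cell markers summed to 15.8 to 17.9 CPM there, and the part of leukocyte RNA in the Lyso values was not tested.

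**Figure D5:**
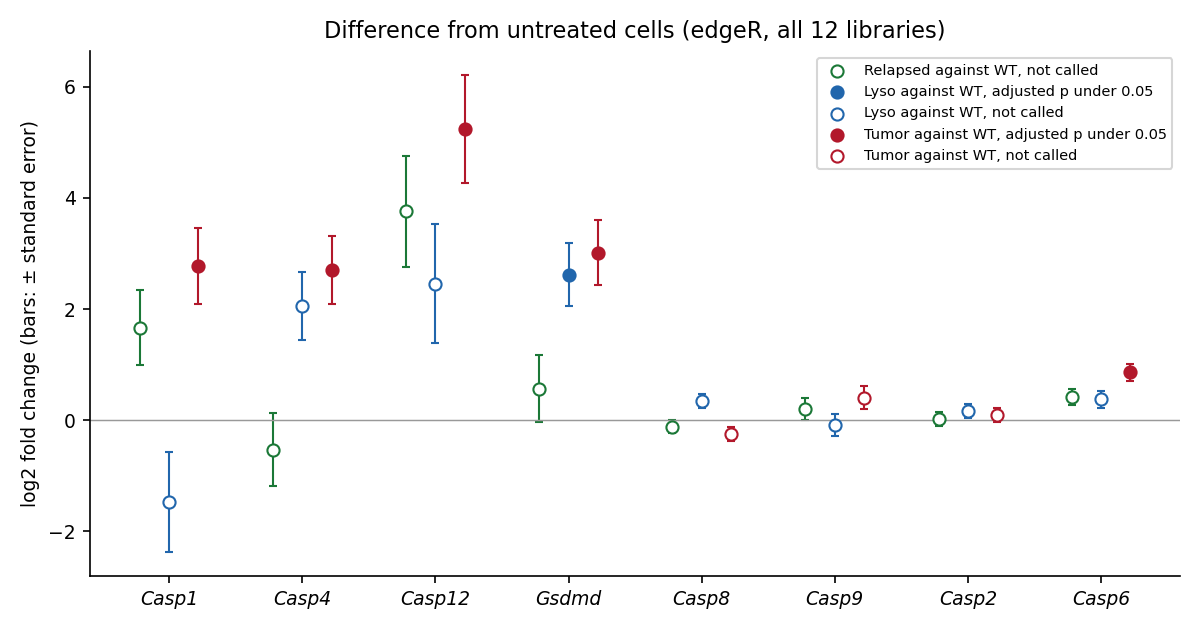
Fitted log2 fold change from WT with its standard error (y axis) for each member (x axis) in Relapsed, Lyso and Tumor. Filled points have an edgeR adjusted p under 0.05, which holds for 5 members in Tumor, for Gsdmd in Lyso and for none in Relapsed.

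The 3 conditions were also compared directly, with libraries of WT left out of the contrast. Between Tumor and Lyso, 3 members were higher in Tumor, beside 14.2% of all tested genes. These were Casp1 by 4.26 ± 0.65 (edgeR adjusted p = 0.0005), Casp12 by 2.79 ± 0.66 (0.0082) and Casp6 by 0.49 ± 0.14 (0.0218). Casp8 was lower in Tumor, at -0.60 ± 0.12 (edgeR adjusted p = 0.0029), beside 10.5% of genes called lower. Casp4 and Gsdmd differed by 0.64 ± 0.47 and 0.40 ± 0.43 and were not called, which does not show that their levels were alike.

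Between Lyso and the relapsed lines, which were sequenced to similar depth, 3 members were higher in Lyso, beside 4.87% of genes. Casp4 was higher by 2.58 ± 0.51 (edgeR adjusted p = 0.0087), Gsdmd by 2.05 ± 0.45 (0.0145) and Casp8 by 0.47 ± 0.12 (0.0311), with no overlap of libraries. Casp1 was lower in Lyso, at -3.14 ± 0.64 (edgeR adjusted p = 0.0105), beside 2.81% of genes called lower. Pooled Casp1 counts were 6 in Lyso and 74 in Relapsed, a ratio of 0.107 (0.0382 to 0.245). Members called higher fell from 3 to 1 without any 1 of the Lyso libraries, and Casp1 was no longer called without Lyso 1 or without Lyso 2. With at least 10 counts in every library, Casp1 was filtered out and not tested. In this contrast, which leaves out the shallow controls, Casp1 and Casp4 had opposite signs.

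Between Tumor and the relapsed lines, 3 members were higher in Tumor, beside 11.8% of genes. Casp4 was higher by 3.23 ± 0.53 (edgeR adjusted p = 0.0008), Gsdmd by 2.45 ± 0.47 (0.0024) and Casp6 by 0.45 ± 0.14 (0.0391). Casp12 (1.49 ± 0.61) and Casp1 (1.12 ± 0.48) were not called. Contrasts that share a group are not independent of each other.

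The wider pathway was read from 54 genes in 8 lists, of which 37 were tested. In Lyso, 5 were called higher than in WT and 0 lower (2 lower at an unadjusted p under 0.05 and 0 by DESeq2), beside 3.5% and 1.21% of all tested genes, with a median difference of 0.19 over the 37. Of 3 transcription factors known to act on Gsdmd and inflammatory caspase genes, Irf1 and Irf2 rose. Irf1 went from 4.53, 8.02 and 17.9 CPM in WT to 658, 746 and 758 CPM in Lyso (5.89 ± 0.57, edgeR adjusted p = 0.000193). Irf2 went from 18.7, 25.8 and 27.7 CPM to 86.9, 70.0 and 75.0 CPM (1.64 ± 0.17, edgeR adjusted p = 0.000256). For both genes the Lyso libraries lay above every WT library.

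Other pathway genes called in Lyso belong to apoptosis. Ripk1, the kinase that recruits or blocks caspase-8 at death receptors, rose by 0.77 ± 0.11 (edgeR adjusted p = 0.00141), and Cflar, which encodes the caspase-8 inhibitor c-FLIP, by 0.79 ± 0.20 (0.0459). These 2 are of 9 genes of the initiator platforms. Of 4 tested inflammasome sensors and adaptors, 7 caspase inhibitors and their antagonists and 7 apoptotic caspase substrates, none was called in Lyso by edgeR's quasi-likelihood test, and 3 of these genes were higher and 1 lower at an unadjusted p under 0.05.

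Of the pathway genes, 4 rose and 6 fell in Tumor, beside 12.1% of all tested genes called higher and 6.94% called lower, with a median of -0.02 over the 37. Irf1 rose there too, to 35.4, 64.6 and 173 CPM (2.91 ± 0.52, edgeR adjusted p = 0.00198), while Irf2 stayed at 25.0, 23.6 and 27.3 CPM (0.03 ± 0.18). Nlrp3, an inflammasome sensor upstream of caspase-1, had 4, 7 and 12 counts in Tumor and 2 counts over all 9 other libraries. Il1b, whose product caspase-1 matures, had 3, 11 and 24 counts in Tumor and 0 counts in the 9 other libraries. Both passed the filter on low counts only through Tumor, so that their calls (edgeR adjusted p = 0.00613 and 0.0133) are a description. Both genes are known for myeloid expression, and the part of myeloid cells in their counts was not tested. Birc3, an inhibitor of apoptosis, rose from 5.66, 2.96 and 2.30 CPM in WT to 9.43, 11.7 and 12.9 CPM (1.87 ± 0.33, edgeR adjusted p = 0.00179).

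The 6 pathway genes that fell in Tumor fell by less than 1 on the log2 scale. Gsdme, another pore-forming gasdermin, was at -0.98 ± 0.27 (edgeR adjusted p = 0.0223), opposite in sign to Gsdmd. Tradd and Casp8ap2, adaptors linked to death receptors and caspase-8, were at -0.62 ± 0.14 and -0.67 ± 0.17, and Pidd1, the platform protein of caspase-2, at -0.76 ± 0.24. Panx1, a channel opened by caspases, was at -0.72 ± 0.23, and Birc5 (survivin), an inhibitor that also serves mitosis, at -0.68 ± 0.21. In Relapsed none of the 37 genes was called by edgeR's quasi-likelihood test, with a median difference of 0.07, and 1 was higher and 1 lower at an unadjusted p under 0.05. DESeq2 also called 0. Of 9 other gasdermin genes only 2 were high enough to test.

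The genes most like a member in level across the 12 libraries are given as a description, since the libraries share groups and depth. Pearson's r of log2 CPM with Gsdmd was highest for Litaf (0.968), Inpp5d (0.949), Hk2 (0.947), Cpeb4 (0.942) and Usp19 (0.942). Of these, Inpp5d had only 1, 0 and 2 counts in WT and at most 11 in any library. Casp4 ranked 12 among all tested genes for Gsdmd, and Gsdmd ranked 12 for Casp4 (r = 0.919), the closest pair among the members examined. For Casp4 itself the first 5 were Arid5a (0.974), Egr2 (0.960), Gm26885 (0.945), F3 (0.945) and Atxn7 (0.939). Egr2 had only 2, 0 and 2 counts in WT. Arid5a shared the raised WT 1 value, with 52.6 CPM in WT 1 and 12.7 and 18.3 CPM in WT 2 and 3, against 65.6 to 76.7 CPM in Lyso. For Casp12 the first 5 were Ppp2r3a (0.959), Fbxo10 (0.959), Ptpn6 (0.956), Rreb1 (0.956) and Tiam2 (0.948). Its neighbours Casp1 and Casp4 were far from it, with r of 0.514 and 0.480, while Casp6 on another chromosome had an r of 0.871.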

How the data were processed

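RNA was measured in 12 libraries. The authors trimmed reads with fastp 0.19.6, aligned them to GRCm38 with STAR 2.7.1a and deposited raw counts per gene without normalization. The submitters' processing notes also name DESeq2 1.24.0. Strand setting and annotation release are not given in the sources used here, so reads of overlapping opposite genes cannot be told apart. Reads that match several genes are not counted. The 4 rows that name no gene were left out. Counts on genes were 36.2% to 39.4% of a library's reads, and reads on no feature 43.5% to 44.8%.

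Symbols, positions and exonic lengths (all annotated exons merged) came from a GENCODE annotation of GRCm38. Counts were tested with edgeR 4.0.16 in R 4.3.3 (TMM, filterByExpr, glmQLFTest, 1 fit of 12 libraries, Benjamini-Hochberg over 14924 genes, called at an adjusted p under 0.05). Ratios of pooled counts carry exact binomial intervals (scipy 1.17.1, Python 3.11.15). The script was tested on simulated data. The members and gene lists were chosen with earlier results of these data known. Named genes are the 8 members, up to 4 called genes per pathway list and comparison with WT (smallest p) and the 5 genes most correlated with Gsdmd, Casp4 and Casp12; some genes of the rule are not reported here. Alternatives were DESeq2 1.42.0, other normalizations, filters, fits, control libraries and call rules, a replicate block, and each library left out. A fit of 9 libraries without the block was added after seeing the data. The closest replicates, Lyso 2 and 3, still differed by more than sampling noise (chi-square of 1.58 per degree of freedom) and were kept apart.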

Additional observations from a re-analysis of the deposited data

How the results depend on the processing

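Members called higher in Lyso than in WT numbered 1, and 2 with DESeq2, with WT 3 as the only control and in a fit of only the groups compared, 3 with no filter on low counts, 0 with at least 10 counts in every library compared, and 0 to 2 without each library in turn (2 without WT 1, 0 without each of the other 5). In Tumor they numbered 5, and 3 with WT 1 and WT 2 as the only controls, 1 with at least 10 counts (fewer members tested), and 3 to 5 without each library (3 without WT 3). In Relapsed they numbered 0, and 1 with DESeq2 and with no filter, and 0 to 1 without each library (1 without ITM). Members higher in Tumor than in Lyso numbered 3, and 5 in a fit of those groups alone, and the 1 member lower became 0 at a log2 fold change over 1. Between Lyso and Relapsed, members higher numbered 1 to 3 and members lower 0 to 2 without each library (1 higher without any 1 of the Lyso libraries, 0 lower without Lyso 1 or 2, 2 lower without ITM). Members lower numbered 0 with at least 10 counts, where Casp1 was not tested, and 2 with no filter.

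Pathway genes higher in Lyso numbered 5, and 3 at a fold change over 1, with WT 3 alone and with at least 10 counts, while 1 gene was lower in the fit of only the groups compared. Pathway genes higher in Tumor numbered 4, and 2 with WT 1 and WT 2 alone and with only the groups compared, 0 with at least 10 counts and 2 to 7 without each library (7 without WT 1, 2 without WT 3 or Tumor 4). Those lower numbered 6, and 0 at a fold change over 1, 2 with WT 1 and WT 2 alone, 3 with at least 10 counts and 1 to 6 without each library (1 without Tumor 1, 2 without Tumor 3 or WT 3, 3 without Tumor 4 or WT 2). In Relapsed 0 to 1 were lower without each library (1 without ITM).

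For the replicate numbers shared by the labels, all 7 same-numbered pairs had correlated deviations under 0.1 (-0.008 to 0.065). Pairs of unlike number ran from -0.053 to 0.059. Such weak correlations do not show a pairing of the libraries and cannot exclude one. The fit with the replicate block used the 9 libraries of WT, Lyso and Tumor. The same 9 libraries without the block, a fit added after seeing the data, gave 3 members higher in Lyso (Gsdmd, Casp4 and Casp12). With the replicate block, 2 members were higher in Lyso (Gsdmd and Casp12), 1 pathway gene was lower in Lyso, and in Tumor 2 pathway genes were higher and 3 lower.

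The sign turned for 4 differences, none of them called. Casp9 in Lyso ran from -0.248 to 0.076 without each library. In Relapsed, Casp2 was at -0.0132 with library size only and -0.0568 to 0.0772 without each library, Casp4 at 0.36 against WT 3 alone and -1.33 to 0.45 without each library, and Gsdmd at -0.0108 to 1.13. The cause of these shifts was not tested. Of the other member values under all alternatives, 323 kept their direction and their side of the threshold, 12 crossed to the called side and 11 to the uncalled side. Depth limits Casp1 and Casp12 in WT 1 and WT 2, where 3 counts stand for 1.7 and 1.27 CPM.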
